A study of Homo sapiens with 26 samples.

Results

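The genes described are 7 tubulins whose mRNAs are subject to autoregulation by the nascent chain: the α-tubulins TUBA1A, TUBA1B and TUBA1C and the β-tubulins TUBB, TUBB2A, TUBB4B and TUBB6. They were taken from the deposited codon tables by the gene symbol of each transcript, which gave 7 of 12325 transcripts. The libraries came from Huh7 cells, a human hepatoma line, treated with PF-06446846, a small molecule that acts on the ribosome while it translates, or with its DMSO vehicle. The first study holds 18 ribosome profiling (ribo-seq) libraries, in triplicate for 1.5 μM, 0.3 μM and vehicle at both 10 min and 60 min. A second study, at 60 min alone, has 2 replicates each of 1.5 μM and vehicle, each with a ribo-seq and an mRNA-seq library (8 in all). Cycloheximide was added at harvest in every group. Reads in coding sequences (CDS) numbered 6414227 to 22224137 per ribo-seq library and 15227654 to 22036358 per mRNA-seq library. Counts at the tubulins made up 1.29% to 1.89% of them in ribo-seq and 1.32% to 1.42% in mRNA-seq. A read shared by paralogs is counted at each, so these shares hold many α-tubulin reads more than 1 time. Of 14 hepatocyte genes used to check the cell line, 13 were in the tables and all 13 exceeded 10 CPM (counts per 1000000 CDS reads) in every ribo-seq library, with a summed level of 21010 to 32050 CPM. Of 8 genes of other lineages, 2 were in the tables (PECAM1 and GFAP), of which 1 exceeded 10 CPM in every ribo-seq library, with a summed level of 11.5 to 28.04 CPM.

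Tubulins are the α and β subunits of the dimers that polymerise into microtubules. When free tubulin accumulates, the cell shortens the life of tubulin mRNA through tubulin autoregulation: the adaptor TTC5 binds the first residues of a nascent tubulin as they leave the ribosome, and SCAPER and the CCR4-NOT deadenylase are recruited so that the mRNA being translated is degraded. The signal is the N-terminal peptide, methionine-arginine-glutamate-isoleucine in β-tubulin and methionine-arginine-glutamate-cysteine in α-tubulin.

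The start of each coding sequence encodes the peptide that autoregulation reads, and is shown for this reason. The first 10 codons of the isoforms in the tables are given 5′ to 3′ with the first 4 codons in capitals (GRCh38, GENCODE v44). In TUBA1B, TUBB, TUBB2A, TUBB4B and TUBB6 the capitals encode the autoregulation peptide, and in the stretch of TUBA1C from codon 71 they mark the matching codons.
TUBA1A: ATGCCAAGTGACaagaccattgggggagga
TUBA1B: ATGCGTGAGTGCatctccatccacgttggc
TUBA1C: ATGACAGCCTGGttcaatggggtggaggag
TUBA1C, from codon 71: AAGCGTGAGTGCatctccatccacgttggc
TUBB: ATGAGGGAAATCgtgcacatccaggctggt
TUBB2A: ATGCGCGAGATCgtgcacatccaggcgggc
TUBB4B: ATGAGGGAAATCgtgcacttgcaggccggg
TUBB6: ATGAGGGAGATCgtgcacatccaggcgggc

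The isoform in the tables did not carry the usual N-terminus for every gene. TUBA1B (chr12:49127782-49131395, minus strand, 452 codons), TUBB (chr6:30720352-30725422, plus strand, 445 codons), TUBB2A (chr6:3153666-3157544, minus strand, 446 codons) and TUBB4B (chr9:137241287-137243707, plus strand, 446 codons) matched the MANE reference transcript over their whole length. The isoform of TUBA1A (chr12:49184771-49189066, minus strand) has 417 codons and begins at codon 36 of the reference, so it holds no codon of the α-tubulin start. The isoform of TUBA1C (chr12:49227926-49273334, plus strand) has 520 codons, in which the usual frame begins at codon 71 with a lysine codon in place of the start codon, and its first 70 codons held 0 reads in each of the 26 libraries. The isoform of TUBB6 (chr18:12308262-12326332, plus strand) has 137 codons, of which the first 104 match the reference of 447 codons.

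Many of the tubulin reads could not be assigned to 1 gene. Reads with up to 5 best sites were kept and counted at each site, and paralogs are near-identical over long stretches. A 28-base footprint was unique to its transcript at 18.6% of the codons of TUBA1B, 25.7% of those of TUBA1A, 34.6% of those of TUBA1C, 23.5% of those of TUBB2A, 75.1% of those of TUBB4B and 96.4% of those of TUBB6. Over the tables, the median transcript was unique at 100% of its codons, and 333 of 10646 assessed transcripts (3.13%) were below 50%. Unshared codons carried a median of 13.1% of the reads counted for TUBA1B, 3.20% for TUBA1A, 9.30% for TUBA1C, 10.6% for TUBB2A, 71.6% for TUBB4B and 82.8% for TUBB6 in ribo-seq. TUBA1B shared 290 of its codons with TUBA1C and 290 with TUBA1A, and TUBB2A shared 341 with TUBB2B. The whole-CDS values of the α-tubulins therefore rest in large part on the same reads, and most of those of TUBB2A are shared with TUBB2B.

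TUBB, the main β-tubulin of many cell types, is listed at 0 in each of the 26 libraries. A 28-base footprint was unique at 97.1% of its codons among the transcripts with a GENCODE symbol. Unnamed transcripts, those without one, were not searched. Among unnamed transcripts, 9 have the same length of 445 codons, of which 7 are also at 0 in every library. In all, 200 transcripts (1.62%) are listed at 0 throughout. The cause was not tested, no level or fold change is given for TUBB, and the results below are of the other 6 tubulins.

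Reads at unshared codons placed the tubulins in order, leaving out the last 15 codons and the stretches of TUBA1C and TUBB6 that differ from the reference. TUBA1B and TUBA1C are the broadly used α-tubulins and TUBA1A the α-tubulin prominent in developing neurons, while TUBB4B is a widely used β-tubulin. In the 6 vehicle libraries of the first study, TUBA1B had 8.15 to 9.42 reads per unshared codon per 1000000 CDS reads (median 8.53), TUBA1C 3.21 to 4.72 (median 3.79), TUBB4B 2.56 to 3.28 (median 2.96), TUBA1A 1.05 to 1.29 (median 1.19), TUBB2A 0.485 to 0.592 (median 0.527) and TUBB6 0.187 to 0.337 (median 0.281). The ranges of TUBA1C and TUBB4B overlapped, and those of the other neighbours did not. The place of TUBA1A rested on few codons: without the 5 unshared codons of most ribo-seq reads in each gene, the vehicle ribo-seq libraries of the second study had 0.331 and 0.293 for TUBA1A, 0.385 and 0.484 for TUBB2A and 0.336 and 0.318 for TUBB6, so that TUBA1A was then below both in each library. Over the 22 ribo-seq libraries, the density of TUBA1B was 2.00 to 2.64 times that of TUBA1C and 5.68 to 11.99 times that of TUBA1A. In the 4 mRNA-seq libraries the same ratios were 2.21 to 2.63 and 14.1 to 18.1. Without the same 5 codons of each gene, the ratio of TUBA1B to TUBA1A in vehicle of the second study was 25.3 and 27.5 in ribo-seq, where it had been 7.81 and 7.86 with all codons, and 27.8 and 36.1 in mRNA-seq. By reads per kilobase of CDS with shared reads included, TUBA1B had 3146 to 4830 RPKM in the vehicle libraries, which ranked it 22 of 9656 transcripts with at least 50 reads, and TUBB6 had 68.1 to 153 RPKM, at rank 1664.

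With vehicle, translational efficiency (the log2 ratio of the ribo-seq to the mRNA-seq level in a replicate of the second study) was close to the middle of all transcripts for the 6 tubulins. It was 0.18 and 0.19 for TUBA1B in replicates 4 and 5, at percentiles 59.2 and 58.5 of 9698 transcripts. TUBB6, the lowest of the 6, had -0.10 and -0.12, at percentiles 48.1 and 46.7. At unshared codons alone, TUBA1A had log2 ratios of 0.92 and 1.40, against 0.08 and 0.20 for TUBA1B and 0.26 and 0.11 for TUBA1C. The ratio of TUBA1A also rested on few codons: its strongest unshared codon held 22.6% and 27.98% of 1776 and 1151 unshared ribo-seq reads, and without the 5 codons of most ribo-seq reads its log2 ratios were 0.02 and 0.33. Leaving out these codons lowers the ratio by construction, and TUBA1B then had -0.11 and -0.07 and TUBA1C 0.00 and -0.13.

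**Figure D1:**
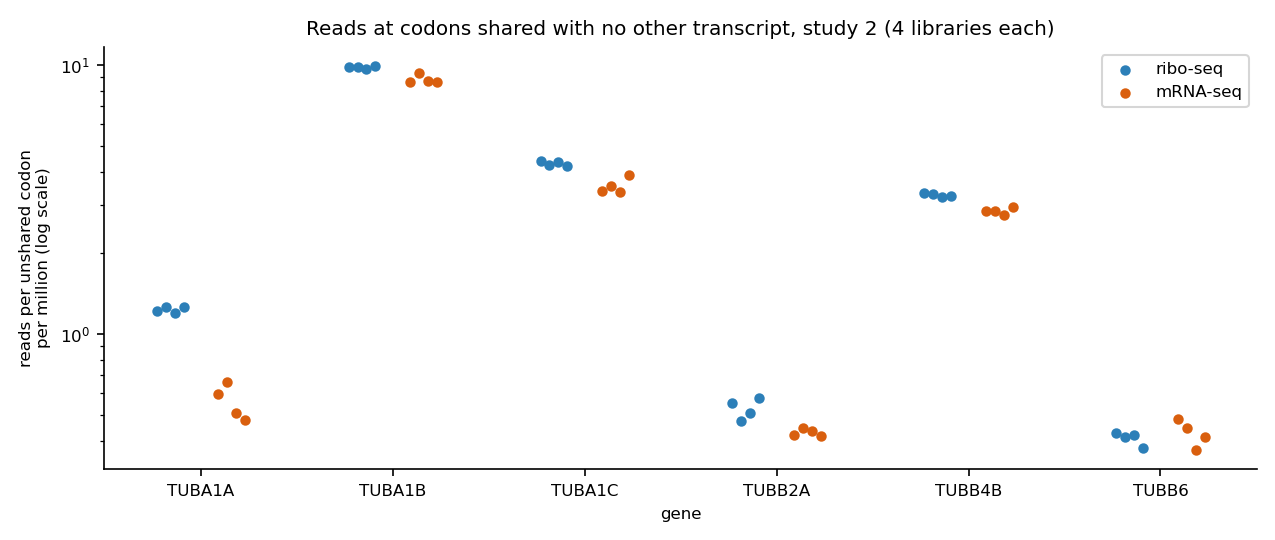
Reads per unshared codon per 1000000 CDS reads (log axis) for 6 tubulins in the 8 libraries of the second study (4 of each assay), 1 point per library. TUBA1B is highest in both assays, and TUBA1A lies at 1.19 to 1.26 in ribo-seq and 0.475 to 0.661 in mRNA-seq.

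Within each coding sequence, the codon with the highest mean share of footprints over the 6 vehicle libraries of the first study, apart from the last 15 codons, was codon 410 of TUBA1B and codon 480 of TUBA1C, which is codon 410 of its usual frame. Each of them was the highest codon in 4 of the 6 libraries. These codons held 0.637% to 4.11% of the TUBA1B reads and 0.780% to 5.03% of the TUBA1C reads in the vehicle libraries of the first study. In TUBB2A and TUBB4B the codon was 400, with 2.63% to 7.11% of the TUBB2A reads and 0.930% to 2.504% of the TUBB4B reads, and it was the highest codon in 4 and 1 of the 6 libraries. The peak codons of all 6 tubulins had footprints shared with another transcript. In vehicle of the second study, codon 410 of TUBA1B held 1.35% to 1.37% of the footprints, and in mRNA-seq 0.203% to 0.265% of the reads, near the average codon (0.916 to 1.20 times). Other peak codons were above the average codon in mRNA-seq of vehicle too, by 2.44 to 5.69 times at codon 400 of TUBB2A and 2.93 to 4.21 times at codon 175 of TUBA1A, its highest, against 11.8 times and 5.06 to 5.94 times in footprints of the same study. TUBB6 had its highest mean share at codon 28 (the highest codon in 5 of 6 libraries), with 5.53% to 16.7% of its reads in the vehicle libraries of the first study. In vehicle of the second study this codon held 4.64% to 5.08% of the footprints and 1.11% to 3.04% of the mRNA-seq reads.

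The first comparison asked whether the compound changed how many footprints each tubulin held. In no comparison did a tubulin pass the FDR of 0.1 in edgeR's quasi-likelihood test over the whole CDS. TUBB6 at 1.5 μM after 10 min came nearest. Its level was 56.9, 59.3 and 49.6 CPM with 1.5 μM and 34.5, 28 and 48.7 CPM with vehicle. The groups did not overlap, by the narrow gap between the lowest treated and the highest vehicle library. The log2 change was 0.58 ± 0.17 (SE, n = 3), with an adjusted p of 0.138 (edgeR).

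In both other β-tubulins, each treated library was above each vehicle library at 10 min. How many of all transcripts separated in this way was not counted. TUBB2A had 605, 604 and 544 CPM with 1.5 μM after 10 min and 501, 408 and 496 CPM with vehicle, a log2 change of 0.32 ± 0.11 (SE, n = 3; edgeR adjusted p = 0.184). TUBB4B had 1548, 1597 and 1478 CPM against 1304, 1154 and 1416 CPM, a log2 change of 0.25 ± 0.11 (edgeR adjusted p = 0.246). TUBA1B had 5356, 6164 and 6087 CPM against 4923, 4265 and 5587 CPM, and its groups overlapped, with a log2 change of 0.25 ± 0.12 (edgeR adjusted p = 0.296). The log2 changes of TUBA1A and TUBA1C, which share most reads with it, were 0.22 and 0.25. Footprint counts cannot tell more mRNA from more ribosomes per mRNA, and there is no mRNA-seq at 10 min. In bulk libraries, a change in some cells and a change in all cells cannot be told apart.

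All 6 estimates were above 0 at 10 min, and 0 of 6 tubulins were called by edgeR, against 0.851% of 11045 transcripts. At an unadjusted p under 0.05, 3 of 6 passed, against 17.7% of all transcripts, and DESeq2 called 1 of 6, against 4.67%. Vehicle replicate 3 decided the edgeR call: without it, the 6 tubulins were all called, with log2 changes of 0.31 to 0.81, and so were 14.9% of all transcripts. At unshared codons alone, the log2 change of TUBB2A was 0.03 ± 0.10, that of TUBA1A was -0.04 ± 0.12 and that of TUBB6 was 0.48 ± 0.18, and no tubulin passed. There the groups of TUBB2A overlapped (55.5 to 58.7 CPM with 1.5 μM and 54.3 to 57.5 CPM with vehicle). Those of TUBB6 did too (40.7 to 44.8 and 22.45 to 41.7 CPM). Those of TUBB4B did not (1065 to 1152 and 861 to 1027 CPM). Over the 14 alternatives, the adjusted p of TUBB6 ran from 0.00398 to 0.442.

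At 60 min the log2 changes with 1.5 μM ran from -0.08 for TUBB4B to 0.11 for TUBA1A, with SEs of 0.14 to 0.20, and 0 of 6 were called (background 0.0726%). The direction of TUBA1A turned at its unshared codons, with 108, 97.7 and 99.0 CPM with 1.5 μM against 132.5, 137 and 117 CPM with vehicle, without overlap, and a log2 change of -0.34 ± 0.12 (edgeR adjusted p = 0.9997). That fit had no replicate term, and how many of all transcripts separated in this way was not counted. In vehicle of the second study, 1 codon held 22.6% and 27.98% of the unshared TUBA1A reads. The change was not tested without such codons. TUBA1B had 5383, 7145 and 6873 CPM with 1.5 μM and 5506, 6549 and 6449 CPM with vehicle, so its groups overlapped. With 0.3 μM the log2 changes were 0.09 to 0.23 after 10 min and -0.09 to 0.03 after 60 min, and 0 of 6 were called at either time (background 0% and 0%). The 2 doses share their vehicle libraries. At an unadjusted p under 0.05 and by DESeq2, 0 of 6 passed in each of these 3 comparisons. The change of the 1.5 μM effect between 10 and 60 min was -0.61 ± 0.30 for TUBB6 and -0.33 ± 0.17 for TUBB4B, and 0 of 6 were called in that interaction by edgeR (background 0%), by DESeq2 or at an unadjusted p under 0.05.

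Between the vehicle cultures of 60 and 10 min, the log2 differences ran from 0.27 for TUBA1A to 0.49 for TUBB6. TUBB4B had 1532, 1686 and 1587 CPM at 60 min and 1304, 1154 and 1416 CPM at 10 min, without overlap, a log2 difference of 0.30 ± 0.12. Of the 6, 5 had an unadjusted p under 0.05, against 6.93% of all transcripts, and most of the α-tubulin reads are the same reads. At unshared codons the log2 difference of TUBB2A was 0.05 ± 0.12, where it was 0.34 with shared reads. By edgeR 0 were called (adjusted p of 0.713 for all 6; background 0%), and by DESeq2 0 (background 0.387%).

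**Figure D2:**
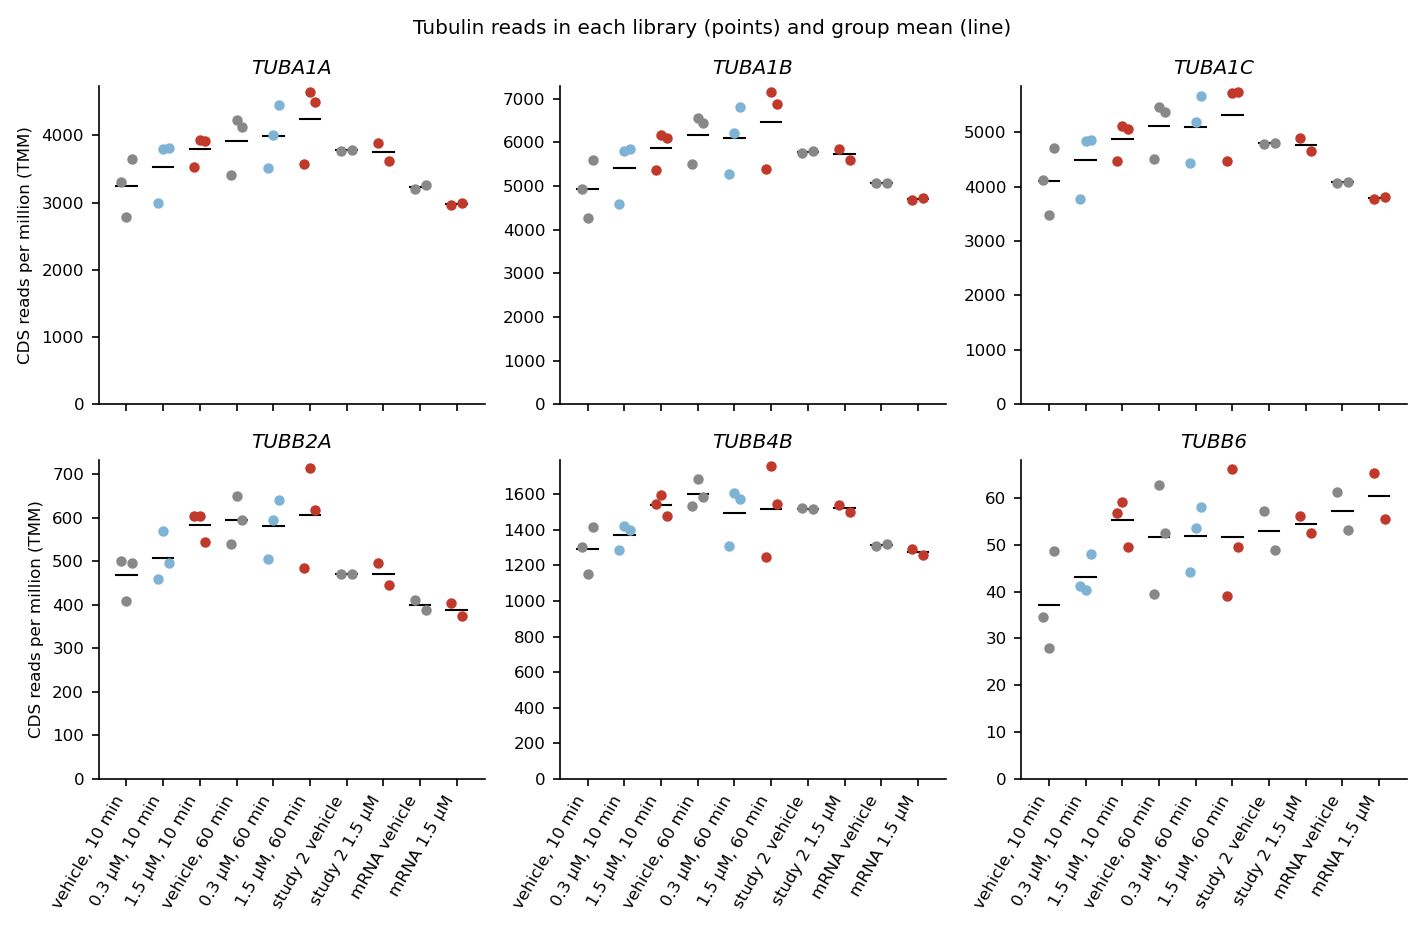
TMM-scaled CPM over the CDS of 6 tubulins in each library (points) with the group mean (line), by group, with an axis from 0. With 1.5 μM after 10 min, the 3 TUBB6 libraries lie at 49.6 to 59.3 CPM and the vehicle libraries at 28 to 48.7 CPM.

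Autoregulation acts on mRNA, which the second study measured. After 60 min of 1.5 μM, TUBA1B mRNA was at 4684 and 4731 CPM against 5079 and 5070 CPM with vehicle, a log2 change of -0.11 ± 0.08 (SE, n = 2; edgeR adjusted p = 0.999). Both treated libraries were below both vehicle libraries, but at unshared codons the groups overlapped (707 and 727 CPM against 789 and 704 CPM) and the log2 change was -0.05 ± 0.09. TUBB4B mRNA was at 1295 and 1261 CPM against 1312 and 1320 CPM (log2 change -0.04 ± 0.08). TUBB6 mRNA was at 65.4 and 55.6 CPM against 61.4 and 53.2 CPM (log2 change 0.08 ± 0.13). None of the 6 was called in mRNA-seq (0 of 6, background 0%), at an unadjusted p under 0.05, or by DESeq2.

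The log2 changes of footprints in the same study ran from -0.01 for TUBA1B to 0.03 for TUBB6, with SEs of 0.06 to 0.10, and 0 of 6 were called (background 0.115%). TUBA1B had 5856 and 5606 CPM with 1.5 μM and 5753 and 5797 CPM with vehicle. The log2 change of translational efficiency ran from -0.06 for TUBB6 to 0.11 for TUBA1A (-0.02 at unshared codons), with SEs of 0.09 to 0.17, and 0 of 6 were called (background 0.0339%). At an unadjusted p under 0.05 and by DESeq2, 0 of 6 passed in both.

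The next comparison asked whether footprints shifted toward the start, where the autoregulation peptide is made. TUBA1B was the 1 tubulin that passed. With 1.5 μM after 10 min, 5.68%, 5.86% and 4.61% of its reads lay in the first 30 codons, against 2.11%, 2.44% and 3.23% with vehicle, without overlap of the groups. The mean share was 2.08 times that of vehicle. The groups also did not overlap for the median transcript. Its density in the first 30 codons was 0.583, 0.568 and 0.492 of its mean density with 1.5 μM. With vehicle it was 0.378, 0.469 and 0.427. The share of all transcripts without overlap was not counted. Relative to the typical transcript, the log2 change of the first 30 codons against the rest was 0.70 ± 0.18 (SE, n = 3), with an adjusted p of 0.0109 (edgeR). With 1 scaling factor per library, which keeps the shift common to all transcripts (median log2 0.37), it was 1.11. Over 16 alternatives its adjusted p ran from 0.000321 to 0.243.

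The call was 1 of 5 tubulins that could be tested, against 4.2% of 10951 transcripts. DESeq2 also called 1 of these 5, against 2.02% of transcripts. TUBA1C, which has 0 reads in the first 30 codons of its isoform, could not be tested. Without 1.5 μM replicate 2, the log2 change of TUBA1B was 0.64 with an adjusted p of 0.243 (edgeR). Without each of the other 5 libraries in turn, it stayed under the FDR.

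Only 5 of the first 30 codons of TUBA1B, codons 1 to 5, had unshared footprints, and the other 25 were shared with the transcripts of TUBA1C and TUBA1A, in TUBA1A ahead of its coding sequence. At codons 1 to 5 alone there were 346, 657 and 734 reads with 1.5 μM and 356, 232 and 278 with vehicle, which made 7.18%, 8.51% and 10.04% of its unshared reads against 2.98%, 2.51% and 4.52%. These groups did not overlap, and the log2 change at unshared codons was 1.05 ± 0.22 (edgeR adjusted p = 0.000321). That fit was scaled by the unshared codons among the first 30 of all transcripts. Codons 1 to 5 of TUBA1B were thus not set against codons 1 to 5 of the others. Its estimate and the one over all 30 codons are not like for like. Codon 4 carried a mean of 22.2 reads per 1000000 CDS reads with 1.5 μM and 9.85 with vehicle, and the shared codon 6 carried 48.0 and 17.4. Past codon 30, some codons were higher too and others lower. The shared codon 34 carried 16.74, 18.35 and 17.78 with 1.5 μM and 7.079, 8.009 and 9.541 with vehicle. The unshared codon 68 carried 4.075, 3.485 and 2.841 against 9.11, 14.26 and 7.421.

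TUBA1C has the matching stretch at codons 71 to 100 of its isoform. It held 5.70%, 5.76% and 4.03% of the reads from codon 71 on with 1.5 μM and 2.05%, 2.49% and 3.14% with vehicle, without overlap. Counted from codon 71, a choice made after the data were seen, the log2 change of TUBA1C was 0.64 ± 0.19 (edgeR adjusted p = 0.0307). Codons 76 to 100 of TUBA1C held exactly as many reads as codons 6 to 30 of TUBA1B in each of these 6 libraries (1760, 2869 and 1943 with 1.5 μM), and codons 71 to 75 held 0 to 3. The stretch therefore counts the reads already counted for TUBA1B, and its call is not a second result.

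**Figure D3:**
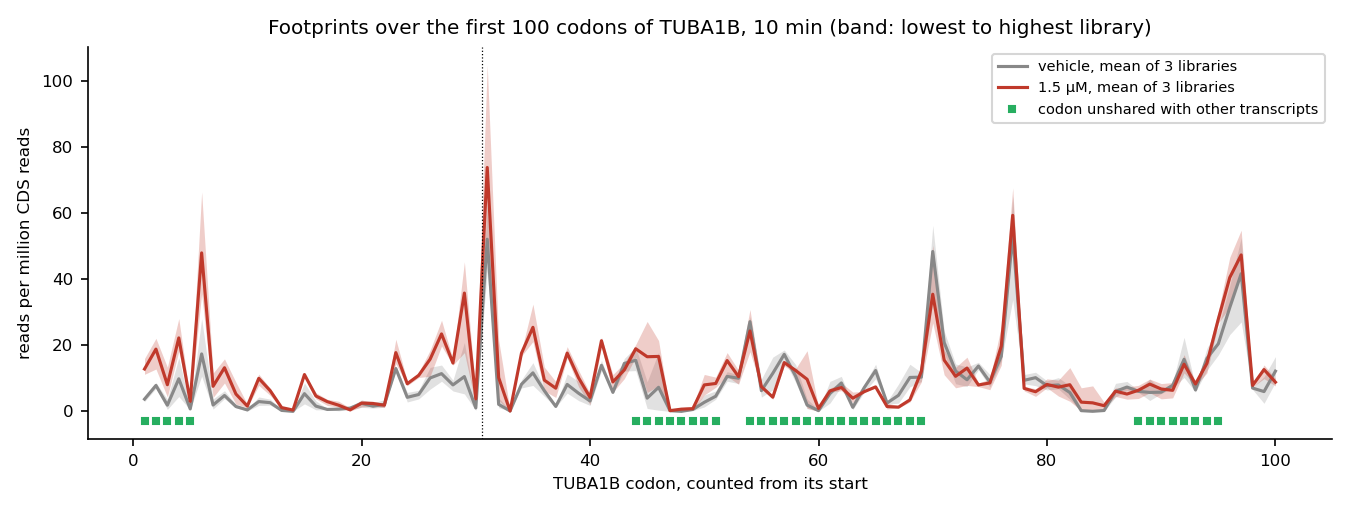
Reads per 1000000 CDS reads at codons 1 to 100 of TUBA1B after 10 min, as the mean of 3 vehicle or 3 1.5 μM libraries with a band from the lowest to the highest library. Squares mark codons with unshared footprints, and the dotted line is the end of codon 30. Codon 6 stands at 48.0 with 1.5 μM and 17.4 with vehicle.

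The β-tubulins had no such call. TUBB4B had 5.91%, 8.10% and 6.997% of its reads in the first 30 codons with 1.5 μM after 10 min against 5.14%, 5.04% and 4.99%, without overlap, and a log2 change of 0.08 ± 0.20 relative to the typical transcript (edgeR adjusted p = 0.917). TUBB2A had 3.04%, 3.46% and 3.43% against 2.91%, 2.94% and 2.78% (log2 change -0.21 ± 0.23, and 0.39 ± 0.28 at unshared codons). TUBB6, whose isoform is short, had 38.8%, 44.6% and 35.7% against 30.6%, 34.9% and 25.9% (log2 change 0.18 ± 0.27). Its shared codon 28 alone held 12.5% to 20.8% of its reads with 1.5 μM and 10.2% to 15.2% with vehicle. TUBA1A, whose isoform lacks the α-tubulin start, had 4.83%, 5.00% and 5.11% against 3.88%, 4.36% and 4.62% (log2 change -0.18 ± 0.19, and -0.63 ± 0.24 at unshared codons). The mean shares were higher with 1.5 μM for all 4, each without overlap of the groups. Their estimates with 1 scaling factor per library were 0.49 (TUBB4B), 0.21 (TUBB2A), 0.60 (TUBB6) and 0.23 (TUBA1A), none past the FDR. The estimates above are relative to the shift of all transcripts, whose median density in the first 30 codons was 0.568 of their mean density with 1.5 μM and 0.427 with vehicle.

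In the other comparisons, 0 of 5 tubulins were called for the first 30 codons. These were 1.5 μM after 60 min (background 0.302%), 0.3 μM after 10 min (0.0362%) and 60 min (0.0362%), vehicle at 60 against 10 min (0.164%), 1.5 μM in the second study (0.385%) and the interaction of 1.5 μM with time (0.0181%). DESeq2 called 0 of these 5 in each. At an unadjusted p under 0.05 the 1 that passed was TUBA1A at 1.5 μM after 60 min, where 4.16% of all transcripts did, with a log2 change of -0.59 ± 0.26. Its isoform lacks the α-tubulin start, and 3.49%, 5.07% and 3.63% of its reads lay in the first 30 codons with 1.5 μM against 5.68%, 6.47% and 5.79% with vehicle, without overlap and lower in each of the 3 pairs. With the replicate block, its adjusted p was 0.238 (edgeR). With 0.3 μM after 60 min, which shares the vehicle libraries, it had 4.06%, 6.24% and 3.96%, lower in each pair but with overlap of the groups, and a log2 change of -0.34 ± 0.24. TUBB6 had 38.7% to 43.0% with 1.5 μM after 60 min and 34.4% to 35.6% with vehicle, without overlap. Its log2 change was 0.33, which did not pass and ran from -0.28 to 0.38 over 16 alternatives. TUBA1B had 2.73%, 5.75% and 4.14% with 1.5 μM after 60 min and 2.28%, 4.85% and 4.55% with vehicle. Its groups overlapped, and the log2 change was 0.14 ± 0.27. At its unshared codons 1 to 5, it had 5.25%, 12.4% and 9.74% of its unshared reads against 2.93%, 7.98% and 7.99%. These were higher in each of the 3 pairs but with overlap of the groups. The log2 change was 0.63 ± 0.29, which did not pass (edgeR adjusted p = 1). That fit had no replicate term, and unshared codons were not tested with the replicate block. With 0.3 μM after 10 min TUBA1B had 2.39%, 2.32% and 4.48% in the first 30 codons, a log2 change of 0.14 ± 0.25. In the second study it had 4.91% and 4.56% against 4.28% and 4.43%, a log2 change of 0.08 ± 0.12. The difference between its 60 and 10 min effects was -0.54 ± 0.35 (edgeR adjusted p = 0.810), so the effects at 10 and 60 min were not shown to differ.

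For TUBA1B, the log2 difference between vehicle at 60 and at 10 min was 0.41 ± 0.25, which did not pass (edgeR adjusted p = 0.743), and at unshared codons it was 0.75 ± 0.27 (edgeR adjusted p = 0.467). In vehicle 60 min replicate 1, 2.28% of the reads lay in the first 30 codons. Without it, the log2 difference over all of the first 30 codons rose from 0.41 to 0.84. Its adjusted p was then 0.0289 (edgeR, range over 16 alternatives 0.0289 to 1). In that setting 132 of 11128 transcripts (1.19%) were called, against 0.164% with all libraries.

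**Figure D4:**
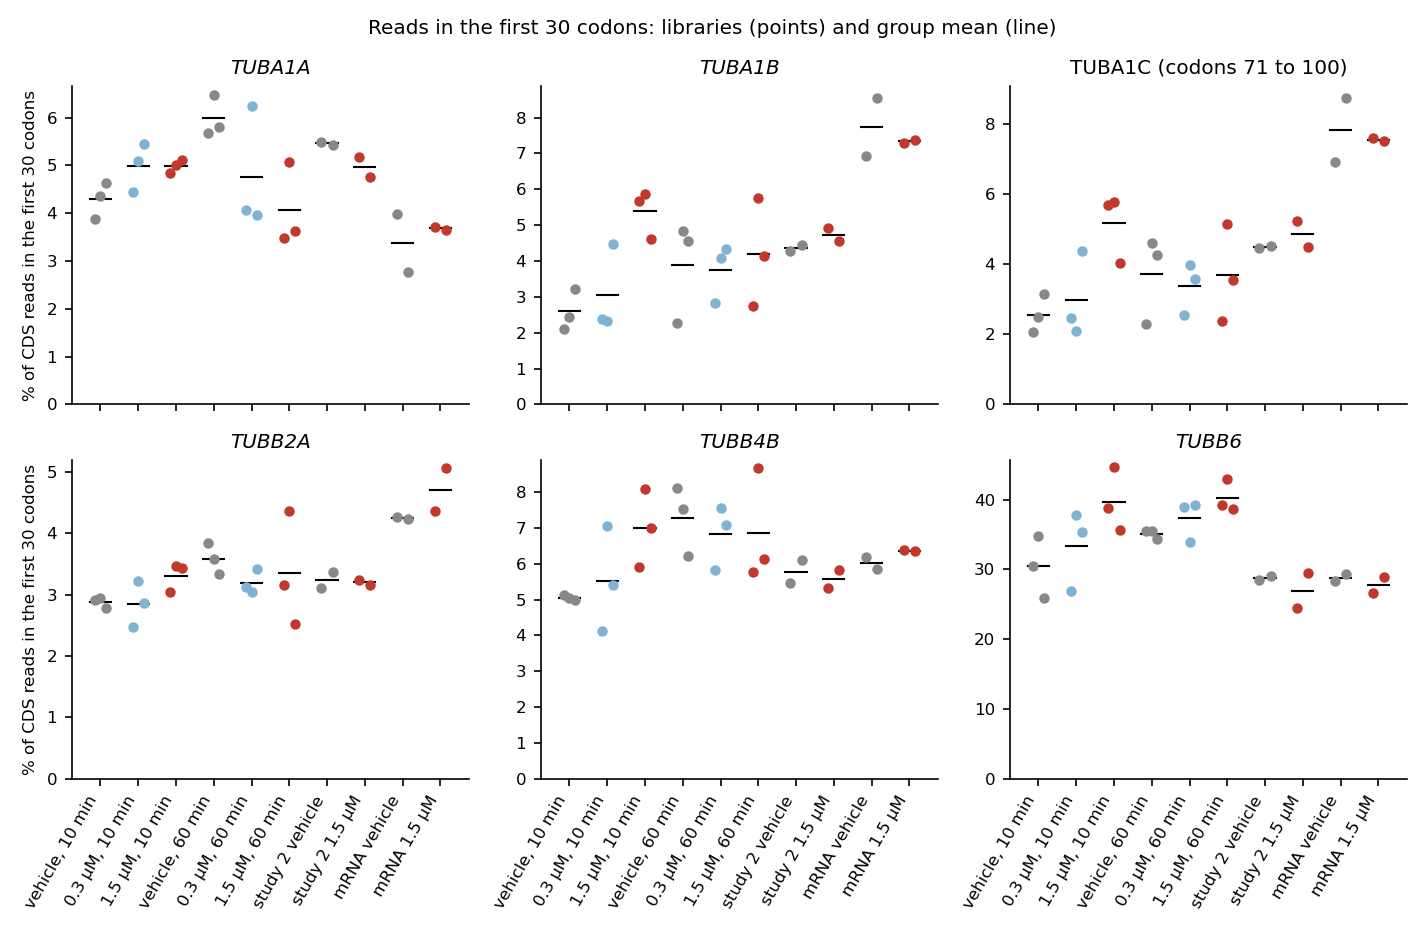
Percent of CDS reads in the first 30 codons (for TUBA1C, codons 71 to 100 as a share of reads from codon 71 on) in each library (points) with the group mean (line). TUBA1B lies at 4.61% to 5.86% with 1.5 μM after 10 min and at 2.11% to 3.23% with vehicle.

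Dmax is the largest excess of the cumulative read share with 1.5 μM over that with vehicle along the CDS. Its Z-score is here Dmax divided by the root mean square of Dmax among transcripts of like read number, as in the study's own code. No tubulin reached a Z-score of 2, the minimum at which the study moved the 5′ limit for counting reads to the Dmax codon. With replicates pooled, TUBB6 had the highest Z-score of the 6 at 10 min, 1.45, with a Dmax of 0.112 at codon 34. TUBA1B had a Z-score of 0.522, with its Dmax of 0.0463 at codon 52. At a Z-score of 2 or more, 0 of 6 tubulins passed at 10 min, 60 min and in the second study, where 3.48%, 2.67% and 2.38% of transcripts did. With the mean and SD of the same transcripts in place of the root mean square, the Z-score at 10 min was 1.12 for TUBB6 and -1.03 to -0.10 for the other 5. This form can be negative by its formula and the other cannot. Again 0 of 6 passed in each of the 3 comparisons, against 4.09%, 3.43% and 3.45% of transcripts. The form with the mean and SD is that of the study's methods text. These are descriptions of pooled libraries, with no p-value.

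**Figure D5:**
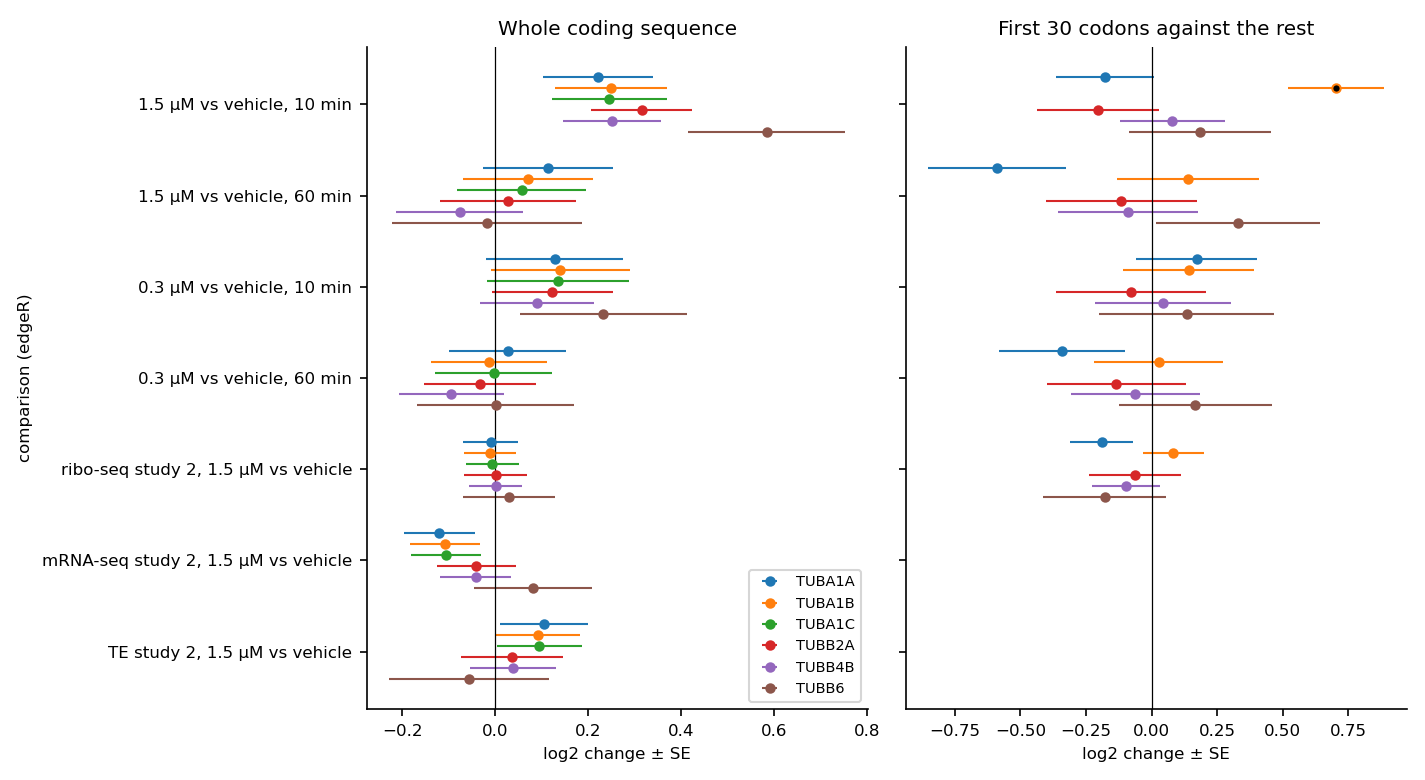
Log2 change ± SE from edgeR for 6 tubulins over the whole CDS (left) and for the first 30 codons against the rest (right, 5 tubulins), by comparison. The 1 point with a black centre is past the FDR of 0.1, TUBA1B at 0.70 with 1.5 μM after 10 min.

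Other genes of the tubulin pathway gave few calls. The list of autoregulation factors has 16 symbols, for TTC5, SCAPER, subunits of CCR4-NOT, TOB1 and TOB2. Of these symbols, CNOT9 and RQCD1 name the same gene. In the tables were 14, and 0 were called by edgeR in the 9 whole-CDS comparisons. At 10 min with 1.5 μM, 3 of 14 had an unadjusted p under 0.05 and DESeq2 called 1, against 17.7% and 4.67% of all transcripts, and the counts of the other lists at 10 min are to be read against the same shares. Their median log2 change with 1.5 μM after 10 min was -0.15, against 0.01 for all transcripts. TTC5, the reader of the nascent peptide, had a log2 change of 0.24 ± 0.16 and SCAPER had -0.34 ± 0.16 there (edgeR adjusted p of 0.444 and 0.282). Both were named for their role, after their values were seen. CNOT1, the scaffold of CCR4-NOT, had -0.09 ± 0.10, and CNOT11, the subunit that links it to SCAPER, had -0.15 ± 0.12.

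Of 23 tubulin folding genes, which include the subunits of the CCT chaperonin that folds tubulin, 0 of 23 tested were called over the CDS by edgeR (median -0.10 with 1.5 μM at 10 min, where 4 had an unadjusted p under 0.05 and DESeq2 called 1). CCT6A had -0.05 ± 0.09 and CCT3 0.08 ± 0.10. Of 14 symbols listed for tubulin-modifying enzymes, SVBP and CCDC23 name the same gene. At 10 min 10 were tested, with a median of 0.15 and 0 called by edgeR, by DESeq2 or at an unadjusted p under 0.05. TTLL12 had 0.18 ± 0.12 and HDAC6, a tubulin deacetylase, 0.14 ± 0.12. Of 18 microtubule-binding proteins, 15 were tested at 10 min with a median of -0.09 and 0 called by edgeR, 5 at an unadjusted p under 0.05 and 1 by DESeq2. STMN1, which sequesters tubulin dimers, had -0.59 ± 0.19 (edgeR adjusted p = 0.160) and TPX2 had -0.28 ± 0.12. In edgeR, none of these lists held a call in any whole-CDS comparison.

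Among 15 other tubulins, 8 were tested at 10 min, 0 were called over the CDS by edgeR (3 at an unadjusted p under 0.05, 2 by DESeq2), with a median log2 change of 0.07 (from -0.55 to 0.39). TUBB2B and TUBB3 had log2 changes of 0.35 ± 0.11 and 0.39 ± 0.12. They share 341 and 92 codons with TUBB2A, whose log2 change at unshared codons was 0.03. For the first 30 codons, TUBA4A, another α-tubulin, whose isoform in the tables has 156 codons, fell by 1.79 ± 0.35 on the log2 scale with 1.5 μM after 10 min (edgeR adjusted p = 0.000169). It had 16, 16 and 29 reads there with 1.5 μM (5.21%, 4.01% and 6.86% of its reads) and 89, 143 and 37 with vehicle (9.76%, 20.3% and 9.59%). MAPRE1, a protein that tracks growing microtubule ends, rose by 0.96 ± 0.24 (edgeR adjusted p = 0.00526), with 13.1%, 13.5% and 11.6% of its reads in the first 30 codons against 5.23%, 5.10% and 5.70%. These were the 2 calls in the 5 pathway lists for the first 30 codons, and both were at 1.5 μM after 10 min, where 2 of 70 list members tested (2.86%) is below the 4.2% of all transcripts.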

How the data were processed

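Per the labels and the study's methods, adapter and rRNA sequence was removed, and the authors aligned the reads with Bowtie 1.1.2 to 1 isoform per gene, the most abundant by kallisto 0.42.5 (GRCh38). Reads were used when they had at most 5 best sites, each site receiving the full count. The authors deposited raw counts per codon, with the P-site 14 bases into the read. The deposited counts are not normalized, and replicates were not pooled.

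Symbols came from GENCODE v44, which named 11270 of 12325 transcripts. The named tubulins, gene lists and tests were chosen with earlier results of these data known. CDS sums were tested with edgeR 4.0.16 (filterByExpr, TMM, glmQLFit, glmQLFTest, Benjamini-Hochberg, FDR of 0.1) in R 4.3.3, only the compared groups in a fit. For the first 30 codons, each library gave 2 columns (first 30 codons and the rest, scaled separately; transcripts of at least 60 codons) and treatment by region was tested. TE was tested as an assay by treatment interaction. DESeq2 1.42.0 and the other settings named below were alternatives. Unshared codons are those whose 28-base footprint occurs at 1 site among the listed transcripts with a GENCODE v44 sequence. For the first 30 codons, fits at unshared codons were scaled over all transcripts, whichever of the 30 codons a gene had unshared. Codons were scored in the 10646 transcripts with a matching annotation, and the 1055 unnamed transcripts were not searched. Dmax used a minimum of 10 reads, and its Z-score divides by the root mean square of a bin of 300 transcripts, with the bin's mean and SD as an alternative. CPM used TMM factors within each study and assay. The text names every list member past the FDR and the 2 with most reads. The search for the transcripts with the most similar profiles is not reported here. The fits were tested on simulated data.

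Same-numbered libraries of vehicle and treatment deviated together after 60 min for both doses (correlations of 0.553, 0.422 and 0.601 for 1.5 μM), so the numbers were taken to pair there. The 2 doses share their vehicle libraries, and no correlation of differently numbered libraries was taken. After 10 min the correlations were uneven, at 0.223, 0.154 and 0.589 for 0.3 μM and 0.223, 0.255 and 0.0552 for 1.5 μM. Whether the numbers pair at 10 min is not settled by these values. The study names the replicates biological, and nothing in the labels tells whether cultures were separate. A p-value then measures the spread between these libraries, and depth covers counting error only. ACTB and ACTG1, meant as comparison genes, and the hepatocyte gene ALB were not among the named transcripts, so they were not analysed here.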

Additional observations from a re-analysis of the deposited data

How the results depend on the processing

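The number of tubulins past the FDR stayed as reported in 258 recalculations and moved in 6. This tally is no measure of stability, since in many settings few or no transcripts were called at all. For the CDS with 0.3 μM, 0 were called in each of 14 alternatives at 10 min and at 60 min. With 1.5 μM after 10 min over the whole CDS, where edgeR called 0, DESeq2 called 1 tubulin (TUBB6, adjusted p = 0.0448), and leaving out 1 library gave 0 to 6 (6 without vehicle replicate 3). For the first 30 codons, where it called 1, counting TUBA1C from codon 71, an alternative chosen after seeing the data, gave 2, of which the second rests on the same reads as TUBA1B, and leaving out 1 library gave 0 to 1 (0 without 1.5 μM replicate 2). For vehicle at 60 against 10 min in the first 30 codons, leaving out 1 library gave 0 to 1. The 1 came without the 60 min replicate 1, where 1.19% of all transcripts were called.

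The replicate block called 2 tubulins over the CDS with 1.5 μM after 10 min (TUBB6 and TUBB2A, with 1196 transcripts in all against 94). There the same-numbered libraries had correlations of 0.223, 0.255 and 0.0552, which do not settle whether the numbers pair the libraries. Where the numbers were taken to pair the libraries, the block changed no tubulin call, though it moved all calls with 1.5 μM after 60 min from 8 to 51 over the CDS and from 33 to 62 for the first 30 codons. In the second study, where 2 pairs do not settle the pairing, it moved them from 13 to 129 in ribo-seq, and a block by culture, from which both assays were made, moved those for TE from 4 to 13.

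Calls over all transcripts moved widely: 9 to 1656 for the CDS and 184 to 872 for the first 30 codons with 1.5 μM after 10 min, 0 to 51 and 10 to 62 after 60 min, 10 to 129 and 10 to 52 in the second study, 0 to 43 and 0 to 132 for vehicle time, 1 to 128 for TE, 0 to 2 for mRNA-seq, 0 to 1 and 0 to 15 for the interaction, and 0 to 32 and 0 to 7 for the first 30 codons with 0.3 μM at 10 and 60 min. The log2 change of TUBA1B in the first 30 codons at 10 min ran from 0.61 to 1.11 over 16 alternatives. Shared reads and 2 or 3 libraries a group limit these results. A library left out of the second study leaves 1 in its group, which is assumed to vary like the others. The causes were not tested.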
